A study of Homo sapiens with 36 samples.

Results

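The neurotrophin receptor NGFR and 4 genes of the same signalling system, NTRK2, NTRK3, BDNF and SORT1, were followed through RNA sequencing of SW1783 and HT29 cells. They were taken by symbol from the table of expected counts, as 5 of 60675 genes. SW1783 is a human astrocytoma line and HT29 a human colorectal adenocarcinoma line, each represented by 18 libraries. In batch A of each line, cells received vehicle or wortmannin at 10 µM, the positive control, which blocks PI3K. In batch B, cells received vehicle or a water extract of *Aconitum carmichaeli* Debeaux (ACD) at 20, 100 or 500 µg/mL, called the low, medium and high dose. Every group had 3 replicates and an exposure of 24 h, and the labels give 0.1% DMSO as vehicle. The lines were also kept in different media (L-15 for SW1783, DMEM for HT29), so that line and medium cannot be told apart.

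Neurotrophins are secreted growth factors that keep neurons alive and shape their connections. Each mature neurotrophin binds a Trk receptor tyrosine kinase, which signals through RAS-ERK, PI3K-AKT and phospholipase C. All of them also bind NGFR, known as p75NTR, a member of the tumour necrosis factor receptor superfamily with a death domain. NGFR strengthens Trk signalling when both are present. Together with sortilin, the product of SORT1, it binds uncleaved proneurotrophins and can then signal towards cell death. In the brain, NGFR is best known from cholinergic neurons of the basal forebrain and from injured tissue.

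The members were selected on a measured value, the change of NGFR at the high dose of ACD in SW1783. Values of the 5 genes in that comparison are therefore given as a description with no test, and so is the difference between the lines at that dose. Normalized counts below are counts divided by the DESeq2 size factor over all 36 libraries, with the SD over n = 3. Log2 fold changes are given with their standard error (SE). A gene was called when its DESeq2 adjusted p-value was under 0.05 and its change was over 1.5-fold. The libraries held 18863863 to 26436867 counts in SW1783 and 15941255 to 33866644 in HT29. A group mean of 3 counts or fewer per library was taken as the floor.

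The lines were checked against cell type markers. Of 6 astrocyte markers, SLC1A3 was the one above the floor in SW1783, at 33.1 to 35.2 CPM (counts scaled to a common library total) in the vehicle of batch B. GFAP was at 6 counts or fewer and S100B at 5 or fewer in every SW1783 library. All 6 fibroblast and mural cell markers, which include COL1A1 and PDGFRB, were above the floor, with a sum of 6013 to 6271 CPM. SW1783 thus went against its label for 5 of 6 astrocyte markers. Of the same list, GFAP and ALDH1L1 were above the floor in the HT29 vehicle of batch B. Of 6 neuron markers, 5 were above the floor in the SW1783 vehicle of batch B, but RBFOX3 and STMN2 among them had at most 6 counts per library. The Schwann cell and neural crest marker SOX10 was at 0 in every SW1783 library. The sums of these lists moved with the dose of ACD. At the high dose the astrocyte sum lay at 5.58 to 6.17 CPM and the fibroblast sum at 1532 to 1638 CPM. The neuron sum lay at 79.2 to 80.4 CPM against 170.0 to 178.8 in vehicle, but its genes did not move as one: TUBB3 and SNAP25 were lower at the high dose, and SYT1 was at 38.4 to 40.3 CPM against 30.7 to 32.1. With wortmannin the astrocyte sum lay at 46.7 to 50.4 CPM against 33.3 to 34.6 in its vehicle, and the neuron sum at 196.4 to 200.9 against 169.9 to 171.3. The fibroblast sum lay at 5473 to 5669 against 5836 to 6069, but its genes were mixed. COL1A1 and THY1 were lower with wortmannin, and COL1A2, DCN, PDGFRB and PDGFRA were higher, all without overlap. In HT29 all 6 intestinal epithelium markers were above the floor. Their sum was 1377 to 1458 CPM in the vehicle of batch B and 1252 to 1285 at the high dose, below every vehicle library. These genes were mixed too: at the high dose VIL1 lay below the vehicle, CDX2 above it, and EPCAM, CDH1, KRT20 and CDH17 overlapped it. With wortmannin that sum was 1517 to 1549 CPM, against 1390 to 1463 in its vehicle, while EPCAM was lower and CDH17 overlapped. The part of these shifts in the results below was not tested. In bulk RNA, fewer cells of a type and less RNA per cell cannot be told apart.

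NGFR lies at chromosome 17, positions 49495293 to 49515008 on the plus strand (GENCODE v44, GRCh38), and counts refer to the whole gene. In SW1783 it was a scarce transcript without ACD. The libraries held 19, 24 and 25 counts in the vehicle of batch A and 24, 28 and 21 in the vehicle of batch B. The low dose gave 37, 34 and 22 counts, a range that overlapped the vehicle. The medium dose gave 73, 89 and 95 counts, above every library of the low dose and of both vehicles. The high dose gave 530, 802 and 698 counts, far above all other groups.

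In normalized counts, NGFR stood at 25.9 ± 1.69 in the vehicle of batch B, 34.0 ± 7.63 at the low dose, 93.5 ± 3.78 at the medium dose and 713.8 ± 58.4 at the high dose. Its log2 fold change with the high dose was 4.81 ± 0.20, that is 28.0-fold. At the medium dose against vehicle the log2 fold change was 1.85 ± 0.22 (DESeq2 adjusted p = 1.4e-15), with all 3 libraries above all vehicle libraries. This comparison uses the same vehicle libraries as the one on which NGFR was chosen. Between the medium and the low dose NGFR differed by 1.46 ± 0.21 (DESeq2 adjusted p = 6.14e-11), in a fit whose dispersion also draws on the vehicle and high dose libraries. Fitted on the 6 medium and low dose libraries alone, the difference was again 1.46 (DESeq2 adjusted p = 3.63e-06). NGFR was the one member called at the medium dose against vehicle, where 3.78% of all genes tested were called, and the one called between medium and low dose, where 1.91% were.

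At the low dose the log2 fold change of NGFR was 0.40 ± 0.25, with a 95% interval from -0.09 to 0.89. DESeq2 left the adjusted p out here, and with edgeR it was 0.367. Replicate 3, at 25.2 normalized counts, lay within the vehicle range of 24.0 to 26.9, and replicates 1 and 2, at 38.9 and 37.9, lay above it. At this dose 0.119% of all genes were called and no member was.

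**Figure D1:**
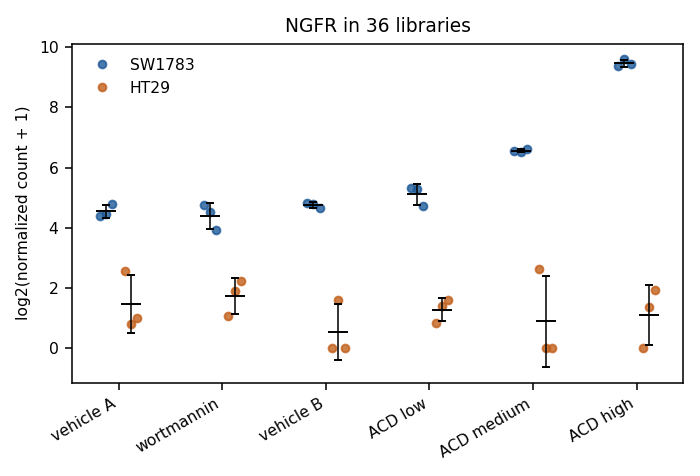
Normalized counts of NGFR in the 36 libraries, as log2(normalized count + 1) on the vertical axis, by treatment group of SW1783 (blue) and HT29 (orange). Points are libraries, black bars are the mean and SD of 3. In SW1783 the 3 libraries of the high dose of ACD sit highest and those of the medium dose next, and every HT29 library sits below every SW1783 library.

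Wortmannin gave a different picture from ACD. NGFR had 29, 23 and 17 counts under wortmannin, a range that spans the vehicle of batch A. The log2 fold change was -0.13 ± 0.41 (DESeq2 adjusted p = 0.863), with a 95% interval from -0.94 to 0.68. That interval includes a change of 1.5-fold in either direction, so such a change was not excluded. The vehicles of batches A and B, at 22.4 ± 3.63 and 25.9 ± 1.69 normalized counts, overlapped.

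In HT29, NGFR stayed at or under the floor in all 6 groups. Counts were 4, 1 and 1 in the vehicle of batch A and 0, 3 and 0 in that of batch B. They were 1, 2 and 2 at the low dose, 5, 0 and 0 at the medium dose, and 0, 1 and 4 at the high dose. Wortmannin gave 1, 3 and 3. No fold change is given within HT29, nor a difference between the lines in the fold change, since both groups of each comparison were under the floor. Untreated, the lines differed: the 68 NGFR counts of the SW1783 vehicle of batch A stood against 6 in HT29. Corrected for depth this was a ratio of 11.9, with a 95% counting interval of 5.20 to 33.6. DESeq2 put the log2 difference at 3.52 ± 0.78 (adjusted p = 1.57e-05), and at 4.71 without replicate 1 of the HT29 vehicle, which held 4 of the 6 counts. All 6 SW1783 groups lay above all 6 HT29 groups, and among the SW1783 groups wortmannin, the vehicles and the low dose overlapped with a neighbour.

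NTRK2 and NTRK3 encode TrkB, the receptor of BDNF and neurotrophin-4, and TrkC, the receptor of neurotrophin-3. NTRK2 (chromosome 9, positions 84668375 to 85095751, plus strand) was under the floor in all 12 groups, with at most 1 count in any library. A count of 0 allows up to 3 counts, or 0.089 to 0.188 CPM depending on the library, and this limit covers counting error only. NTRK3 (chromosome 15, positions 87859751 to 88256791, minus strand) was above the floor in all 6 groups of SW1783 and under it in all 6 of HT29, where 1 library had 1 count and the others 0. In SW1783 the counts were 11, 9 and 4 in the vehicle of batch B, 8, 8 and 5 at the low dose, 6, 8 and 5 at the medium dose and 3, 6 and 6 at the high dose. All these ranges overlapped. For the high dose its log2 fold change was -0.67 ± 0.70. At the medium dose it was -0.29 ± 0.68, with a 95% interval from -1.62 to 1.04. NTRK3 had 4, 8 and 4 counts in the vehicle of batch A and 9, 6 and 9 under wortmannin, a log2 difference of 0.44 ± 0.76. At the high dose in SW1783, NGFR thus stood at 530 or more counts per library while NTRK2 and NTRK3 had at most 6 counts each.

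SORT1 (chromosome 1, positions 109309568 to 109397918, minus strand) encodes sortilin, a sorting receptor of the VPS10P family that carries proneurotrophins and is the partner of NGFR. It was abundant in both lines and higher in HT29. In the vehicle of batch A it was at 1831 ± 61.6 normalized counts in SW1783 and 3161 ± 254.6 in HT29, a log2 difference (SW1783 against HT29) of -0.79 ± 0.07 (DESeq2 adjusted p = 2.68e-25), in a comparison in which 50.8% of all genes were called. NGFR and BDNF were called there too, both higher in SW1783.

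In SW1783, SORT1 had 1859, 1742 and 1868 normalized counts in the vehicle of batch B. At the high dose it had 1401, 1329.7 and 1359, all below the vehicle, with a log2 fold change of -0.39 ± 0.05. At the medium dose it had 1733, 1633 and 1628, also below all vehicle libraries. The difference, -0.13 ± 0.05 (DESeq2 adjusted p = 0.0495), was under the fold threshold. At the low dose the ranges overlapped (-0.06 ± 0.05, DESeq2 adjusted p = 0.691). Under wortmannin SORT1 had 2142, 2069 and 2100.3 normalized counts against 1896, 1774 and 1823 in vehicle, a log2 difference of 0.19 ± 0.05 (DESeq2 adjusted p = 0.000151), again under the fold threshold.

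In HT29, SORT1 lay between 2777 and 3419 normalized counts in all 18 libraries. Its log2 fold change was -0.08 ± 0.07 at the high dose (DESeq2 adjusted p = 0.538), with a 95% interval from -0.21 to 0.04. It was -0.01 ± 0.06 at the medium dose and -0.06 ± 0.07 with wortmannin. The difference between the lines in the change with wortmannin was 0.23 ± 0.08 (DESeq2 adjusted p = 0.0206), under the fold threshold.

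The levels of NGFR and its partner were also set against each other. Per kilobase of exon and within the same library, NGFR amounted to 3.14% ± 0.288 of SORT1 in the SW1783 vehicle of batch B, 4.27% ± 0.822 at the low dose and 12.4% ± 0.779 at the medium dose. At the high dose it amounted to 115.7% ± 12.4, with a range of 104.3% to 128.9%, so that NGFR reached the per-length level of SORT1. With wortmannin it was 2.16% ± 0.618, against 2.70% ± 0.462 in vehicle. In HT29 the ratio was at most 0.374% in any library.

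BDNF (chromosome 11, positions 27654893 to 27722058, minus strand) encodes brain-derived neurotrophic factor, the ligand of TrkB. It was a well-counted gene in SW1783 and a low one in HT29. In the vehicle of batch A it stood at 1250 ± 34.4 and 66.1 ± 13.2 normalized counts, a log2 difference of 4.20 ± 0.13 (DESeq2 adjusted p = 1.35e-216). In SW1783 it had 1191, 1229 and 1275 normalized counts in the vehicle of batch B. The low dose gave 1222, 1317 and 1283, the medium dose 1362, 1343 and 1321, and the high dose 1009, 968.0 and 1040.3. The high dose lay below all vehicle libraries, with a log2 fold change of -0.27 ± 0.06, and the medium dose lay above them, with 0.13 ± 0.06 (DESeq2 adjusted p = 0.0663). Wortmannin gave 1445, 1352 and 1395 against 1276, 1211 and 1263 in vehicle, a difference of 0.15 ± 0.05 (DESeq2 adjusted p = 0.0191) that was under the fold threshold.

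In HT29, BDNF fell at the high dose of ACD. Vehicle libraries of batch B held 60.8, 102.5 and 73.0 counts and high dose libraries 17.3, 13 and 36.3, or 71.9 ± 2.66 and 21.3 ± 3.89 normalized counts. The groups did not overlap, and the log2 fold change was -1.76 ± 0.29 (DESeq2 adjusted p = 7.46e-08), that is 0.296 of the vehicle. In this comparison 3.13% of all genes were called, and BDNF was the one member called. Replicate 2 of the high dose stood apart: it was the shallowest library, with 15941255 counts, and in SORL1 it had 2529 normalized counts against 4821 and 4859 in replicates 1 and 3. Without it the log2 fold change was -1.74 (DESeq2 adjusted p = 3.05e-06). At the medium dose BDNF had 36.6, 51.6 and 45.1 normalized counts, below all vehicle libraries (69.2 to 74.5), and its log2 fold change stood at -0.70 ± 0.25 (DESeq2 adjusted p = 0.156). At the low dose it had 43.1, 70.7 and 64.1 (-0.30 ± 0.24, DESeq2 adjusted p = 0.924). With wortmannin it had 46.6, 40.6 and 49.3 against 55.8, 81.0 and 61.4 in vehicle (-0.58 ± 0.28, DESeq2 adjusted p = 0.124). None of these 3 comparisons called a member, and they called 0.786%, 0.285% and 2.70% of all genes.

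The change of BDNF differed between the lines. Its log2 fold change in SW1783 minus that in HT29 was 0.78 ± 0.17 at the medium dose (DESeq2 adjusted p = 0.000117), where 3.31% of all genes were called. With wortmannin it was 0.74 ± 0.18 (DESeq2 adjusted p = 0.000806), where 3.39% were. The wortmannin difference was 0.54 (DESeq2 adjusted p = 0.0683) without replicate 2 of the HT29 vehicle, the library with the most BDNF counts of its group. At the low dose, where 0.261% of all genes were called, the difference was 0.33 ± 0.16 (DESeq2 adjusted p = 0.464), and at the high dose it was 1.42 ± 0.22.

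BDNF overlaps the antisense gene BDNF-AS, and whether the counting used strand was not stated. BDNF-AS had 1 to 19.5 counts in the HT29 libraries and 20.1 to 57.7 in SW1783, with 7.91 ± 5.12 normalized counts in the HT29 vehicle of batch B and 6.92 ± 4.68 at the high dose. Genes that overlap NGFR (NGFR-AS1, MIR6165 and ENSG00000279036) had at most 3 counts, and those that overlap NTRK3 at most 1.

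**Figure D2:**
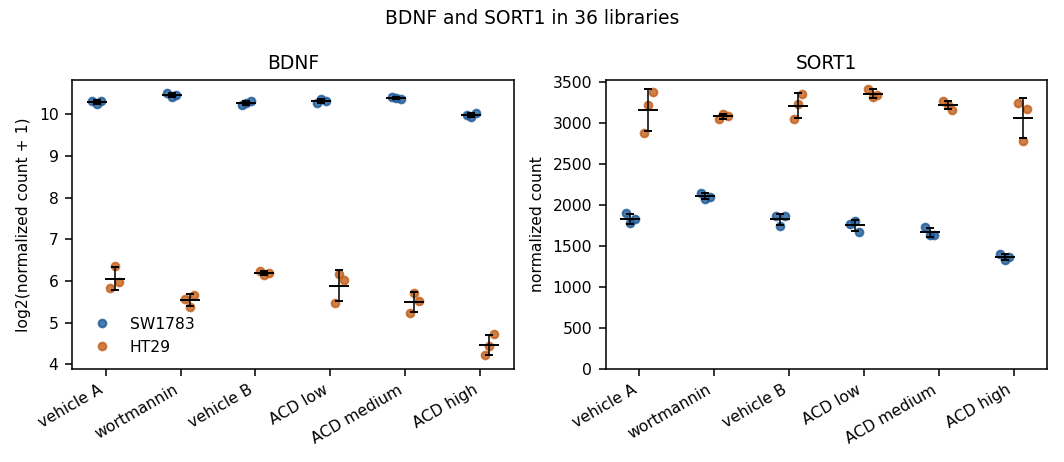
BDNF as log2(normalized count + 1) (left) and SORT1 as normalized count from 0 (right) in the 36 libraries, by treatment group of SW1783 (blue) and HT29 (orange), with the mean and SD of 3 in black. The 3 high dose libraries of HT29 hold the lowest BDNF values, between 17.8 and 25.5 normalized counts, and SORT1 is higher in HT29 than in SW1783 in every group.

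**Figure D3:**
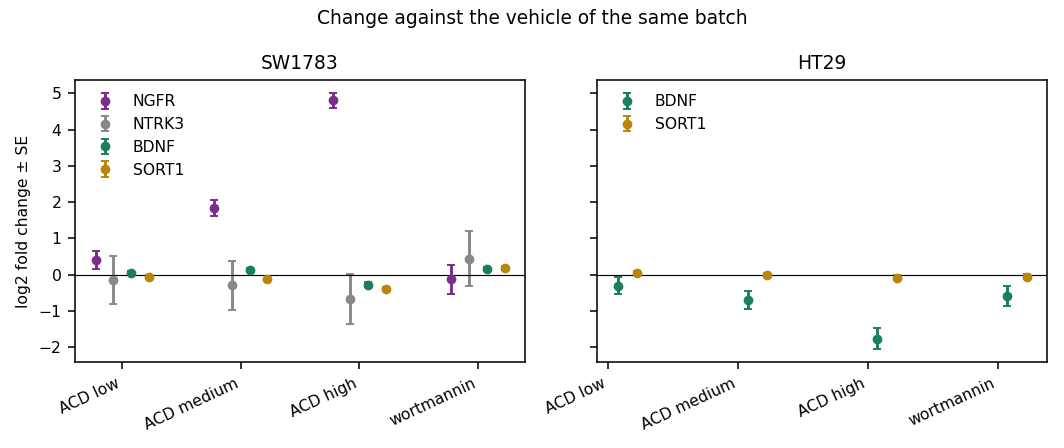
Log2 fold change with its SE against the vehicle of the same batch for NGFR, NTRK3, BDNF and SORT1 in SW1783 (left) and for BDNF and SORT1 in HT29 (right), where the other members were under the floor. NGFR lies at 4.81 at the high dose and -0.13 with wortmannin in SW1783, and BDNF at -1.76 at the high dose in HT29.

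The other genes of the system were read from a list of 89 genes in 10 roles. At the high dose in SW1783, 18 of the 82 with an adjusted p were called, 9 higher and 9 lower, which is 22% beside 17.7% of all genes tested (8.42% higher and 9.28% lower). Among list members averaging 10 or more normalized counts the median log2 fold change was -0.02, beside 0.00 for all such genes. All 18 were also called by edgeR, and 17 kept their call whichever library of the comparison was left out. The exception was GFRA2.

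Of the ligands, NTF4, which encodes neurotrophin-4, fell by 1.15 ± 0.32 on the log2 scale at the high dose (DESeq2 adjusted p = 0.000875), from 42.7, 44.1 and 47.9 normalized counts to 20.0, 21.3 and 18.1. NTF3, which encodes neurotrophin-3, had 36 to 47 counts at the high dose and 49 to 52 in vehicle, and its log2 fold change stood at -0.23 ± 0.27 (DESeq2 adjusted p = 0.538). NTF3 was at 0 in all HT29 libraries.

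Receptors and partners of NGFR also went in both directions at the high dose in SW1783. RTN4R, the Nogo receptor that forms a complex with NGFR, rose by a log2 fold change of 1.86 ± 0.37, from 21.3, 16.3 and 13.7 normalized counts to 52.5, 61.1 and 68.4. LINGO1, the other member of that complex, was under the floor in SW1783. Of the VPS10P sorting receptors, SORL1 fell (-0.76 ± 0.06), and SORCS2, which pairs with NGFR as sortilin does, had a log2 fold change of -0.49 ± 0.10 that was under the fold threshold. SORCS1 and SORCS3 were under the floor. ADAM17, a protease that sheds the extracellular part of NGFR, rose (1.24 ± 0.05). It was the one gene called of 9 with an adjusted p in the cleavage group, or 11.1% beside 17.7% of all genes. Among 8 proteins that bind the intracellular part of NGFR, RIPK2 rose (0.84 ± 0.08) and the MAGE family genes MAGED1 (-0.93 ± 0.02) and NDN (-1.13 ± 0.14) fell. These called genes are 37.5% of the 8.

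Downstream of the Trk receptors, 4 of 18 adaptors were called, or 22.2% beside 17.7% of all genes. FRS3 (1.19 ± 0.22) and RAPGEF1 (0.69 ± 0.04) rose, and SHC4 (-0.73 ± 0.13) and SHC3 (-0.61 ± 0.07), both docking proteins of the SHC family, fell. Among 17 genes of the RAS-ERK and PI3K-AKT kinases, 1 was called, or 5.88%: PIK3R1, a regulatory subunit of PI3K, fell by 1.04 ± 0.06 on the log2 scale. Of 9 genes of the JNK and death arm, DESeq2 called 0, with an unadjusted p under 0.05 for 6, and edgeR called 1, the JNK gene MAPK10 (DESeq2 log2 fold change of -1.12 ± 0.49), which was named after its values were seen. The ERK and AKT kinases themselves were not called, though DESeq2 gave an unadjusted p under 0.05 for 12 of the 17 RAS-ERK and PI3K-AKT genes.

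Of 7 transcripts that neurotrophins are known to induce, ARC (1.70 ± 0.46) and NR4A1 (1.05 ± 0.16) rose and FOS (-1.18 ± 0.37) fell. That is 42.9% called, beside 17.7% of all genes. EGR1 differed from vehicle by 0.10 ± 0.12 on the log2 scale (DESeq2 adjusted p = 0.521). Among other neurotrophic factors and receptors, GDNF rose (2.10 ± 0.45), from 12.3, 5.7 and 10.3 normalized counts to 35.0, 36.8 and 46.3, and MANF, a factor retained in the endoplasmic reticulum, rose (0.89 ± 0.04). GFRA2, a co-receptor of the GDNF family, fell (-1.31 ± 0.46), but it was no longer called without replicate 3 of the vehicle or without replicate 3 of the high dose.

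**Figure D4:**
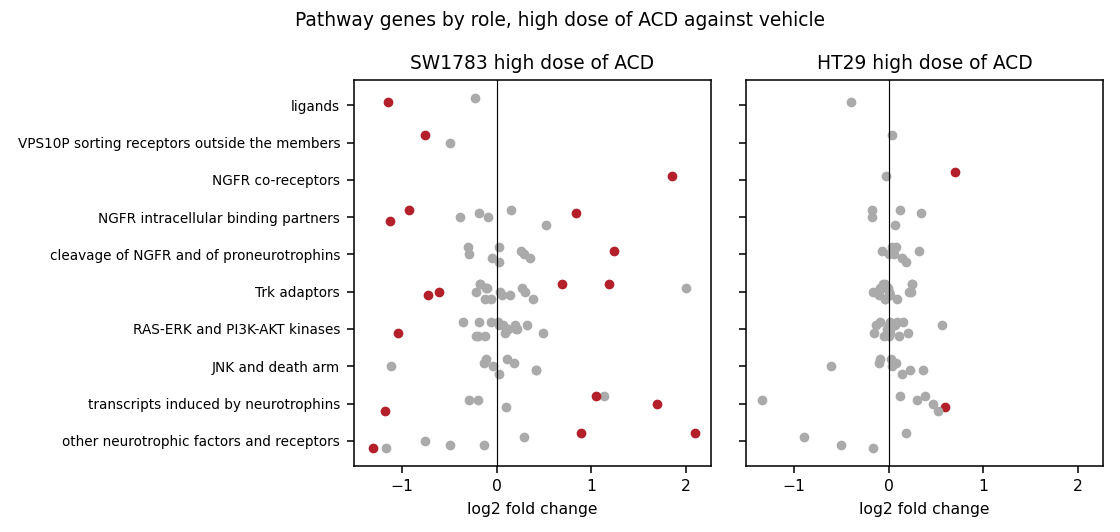
Log2 fold change of the listed pathway genes at the high dose of ACD against vehicle in SW1783 (left) and HT29 (right), one row per role. Called genes are red and all others grey, and genes under the floor in both groups or at 0 in a group are not drawn. In SW1783 9 genes are called higher, up to 2.10 for GDNF, and 9 lower, and in HT29 2 are called.

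At the medium dose in SW1783, 1 of 72 listed genes was called, PIK3R1 (-0.60 ± 0.06), which is 1.39% beside 3.78% of all genes. PIK3R1 was not called without replicate 1 of the vehicle. Between medium and low dose, where 1.91% of all genes were called, DESeq2 and edgeR both called 0 listed genes. DESeq2 had an adjusted p for 76 of these. The unadjusted p was under 0.05 for 13 with DESeq2 and 20 with edgeR. At the low dose, where 0.119% of all genes were called, they also called 0. DESeq2 had an adjusted p for 59 listed genes there. The unadjusted p was under 0.05 for 8 with DESeq2 and 12 with edgeR.

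With wortmannin in SW1783, 3 of 76 listed genes were called, or 3.95% beside 2.67% of all genes. The immediate-early genes EGR1 (0.68 ± 0.09) and FOS (0.70 ± 0.28) rose. GFRA1, the receptor of GDNF, fell (-0.70 ± 0.23). EGR1 kept its call whichever library was left out. FOS lost it in 5 of 6 cases and GFRA1 in 3 of 6, while edgeR called all 3.

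In HT29 at the high dose, 2 of 66 listed genes were called, or 3.03% beside 3.13% of all genes. LINGO1, the NGFR co-receptor, was higher by 0.70 ± 0.24 on the log2 scale (DESeq2 adjusted p = 0.0436). EGR1 was higher by 0.60 ± 0.20 (DESeq2 adjusted p = 0.036), with overlapping groups. Neither was called by edgeR, where the adjusted p was 0.0504 for LINGO1 and 0.0867 for EGR1. The change at the high dose differed between the lines for 11 of 81 listed genes, or 13.6% beside 14.6% of all genes. RTN4R differed by 1.85 ± 0.27 (DESeq2 adjusted p = 2.51e-10). ADAM17 differed by 0.87 ± 0.12 (DESeq2 adjusted p = 1.54e-12). FOS differed by -1.75 ± 0.30 (DESeq2 adjusted p = 1.3e-07). Also higher in SW1783 relative to HT29 were the changes of ARC (1.20 ± 0.38), FRS3 (0.89 ± 0.25), RAPGEF1 (0.71 ± 0.18) and MANF (0.67 ± 0.16). Lower were those of PIK3R1 (-0.93 ± 0.15), SORL1 (-0.85 ± 0.22), MAGED1 (-0.80 ± 0.06) and the immediate-early gene JUNB (-0.63 ± 0.13). With 1 library left out, 4 of these lost their call. ARC lost it without replicate 1 of the SW1783 vehicle (0.93), RAPGEF1 without replicate 2 of the HT29 high dose (0.51) and MANF without replicate 1 or 3 of that group (0.56 each). JUNB lost it without replicate 3 of either vehicle or replicate 2 of the SW1783 high dose (-0.54 at the least).

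At the medium dose the change differed between the lines for 4 of 75 listed genes, or 5.33% beside 3.31% of all genes. FOS differed by -1.19 ± 0.29, SORL1 by -0.77 ± 0.22, EGR1 by -0.75 ± 0.25 and PIK3R1 by -0.62 ± 0.15, all lower in SW1783 relative to HT29. EGR1 was not called by edgeR (adjusted p = 0.0803) and lost its call in 9 of 12 fits with a library left out (-0.84 to -0.66), and PIK3R1 lost it without replicate 1 of the HT29 vehicle (-0.53). With wortmannin 2 of 68 differed, or 2.94% beside 3.39%, EGR1 by 0.66 ± 0.11 and FOS by 0.70 ± 0.22, of which FOS lost its call without replicates 2 or 3 of the SW1783 vehicle or replicate 3 of SW1783 with wortmannin (0.60 to 0.85 over all 12 such fits). Between the vehicles of the lines in batch A, 54 of 84 listed genes were called, 36 higher and 18 lower in SW1783, or 64.3% beside 50.8% of all genes.

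Within HT29, at the medium and low dose and with wortmannin, DESeq2 and edgeR both called 0 of the listed genes. DESeq2 had an adjusted p for 69, 69 and 60 of them, and called 0.786%, 0.285% and 2.70% of all genes. DESeq2 gave an unadjusted p under 0.05 for 9 at the medium dose, 3 at the low dose and 18 with wortmannin. Between the medium and low dose, where 0.159% of all genes were called, it gave 0.

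The genes whose pattern was most like that of NGFR were sought over the 18 SW1783 libraries, by Pearson's r of log2(CPM + 1) among 11409 genes with a mean count of 100 or more. NGFR reached that minimum only through the high dose libraries on which it was selected, so its values of r are not independent of that choice. This is a description, since the libraries share batches and vehicles and the 3 high dose libraries weigh most. The 5 highest were DUSP5 (r = 0.994), a nuclear phosphatase of ERK, and FICD, SPIRE1, E2F7 and PPP1R15A (r = 0.993 each). PPP1R15A, which encodes GADD34, the phosphatase subunit that reverses the integrated stress response, went from 1002 ± 69.8 normalized counts in the vehicle of batch B to 2080 ± 96.9 with the medium dose and 7542 ± 103.4 with the high one. DUSP5 went from 262.7 ± 22.6 to 475.2 ± 6.55 and 1992 ± 69.0. The pattern of BDNF was most like that of CYP24A1 (r = 0.972), APCDD1L and LMO7 (r = 0.966 each), and that of SORT1 most like VCAN (r = 0.989), FUT8 and BICC1 (r = 0.987 each).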

How the data were processed

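The authors sequenced directional mRNA libraries as paired-end reads on an MGI system and aligned them to GRCh38 with STAR, after trimming with Trim Galore. They deposited one table of RSEM expected counts per gene and library, not normalized. The submitters' processing notes name STAR 2.7.3a, RSEM 1.3.3 and Trim Galore 0.6.5. How RSEM handled strand and multi-mapped reads was not stated, and both could move counts between overlapping or similar genes. Gene positions and exon lengths are from GENCODE v44 on GRCh38 and entered no test.

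Here the expected counts were rounded, since 8.84% were not whole, and tested with the two-sided Wald test of DESeq2 1.42.0 (R 4.3.3), with its filters at their defaults and Benjamini-Hochberg adjustment over all genes. The 12 libraries of a line in batch B shared a fit, as did the 6 of batch A. Line differences were interaction terms on 24 or 12 libraries. Where a group was at 0, or both groups of a line were at or under 3 counts per library, no fold was given. The scripts were tested on simulated data. Alternatives were edgeR 4.0.16, TMM, a filter on low counts (mean of 10), size factors without mitochondrial and 7SL genes, other sets of libraries, a replicate block, no fold threshold and each library left out.

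Members and lists were chosen with earlier results of these data known. Named pathway genes were those called, at most 4 per role and comparison, plus the ligands and receptors reported. Genes called between the vehicles of the lines were counted and not named. Some genes of the system are not reported here, and the counts leave them out. Genes with a pattern like a member were the highest by correlation, 5 for NGFR and 3 for BDNF and SORT1. Nothing in the labels says whether replicates were separate cultures, so p-values measure the spread between these libraries. Same-numbered vehicles of batches A and B deviated together (correlations of 0.234 to 0.300 in SW1783 and 0.417 to 0.767 in HT29). Differently numbered vehicles lay apart from these in SW1783 (-0.175 to -0.065) but overlapped them in HT29 (-0.71 to 0.46). Whether the vehicles were paired is not in the labels. Pairing would bear on the comparison of the vehicles and on likeness over 18 libraries. Other same-numbered groups did not deviate together (-0.117 to 0.220 and -0.474 to 0.356 in batch B).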

Additional observations from a re-analysis of the deposited data

Results flagged for a closer look

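In 3 cases the change of a member differed between SW1783 and HT29, by a test of the difference itself (the DESeq2 interaction term, SW1783 minus HT29 on the log2 scale). BDNF differed by 0.78 ± 0.17 at the medium dose of ACD (adjusted p = 0.000117). It was 1.09-fold of vehicle in SW1783 and 0.616-fold in HT29, with all 3 treated libraries above all vehicle libraries in SW1783 and all 3 below in HT29. BDNF differed by 0.74 ± 0.18 with wortmannin (adjusted p = 0.000806), again with all 3 libraries on opposite sides of their vehicles in the lines. SORT1 differed by 0.23 ± 0.08 with wortmannin (adjusted p = 0.0206), with the groups apart in SW1783 and overlapping in HT29, and this difference was under the fold threshold. BDNF had 35 to 113 counts per library in the HT29 groups concerned, and 1061 or more in those of SW1783.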

How the results depend on the processing

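For the members and the list counts, 57 results were recomputed. Of the 419 values under alternatives other than leaving out a library, 399 kept their direction and their side of the threshold. Dropping the fold threshold added calls for BDNF with wortmannin (0.15) and for SORT1 at the medium dose (-0.13) and with wortmannin (0.19) in SW1783, and for SORT1 in the line difference with wortmannin (0.23). It raised the number of listed genes called in SW1783 to 51 of 82 at the high, 15 of 72 at the medium and 2 of 59 at the low dose. Between medium and low dose it gave 10 of 76, and with wortmannin 29 of 76. In HT29 it gave 7 of 66 at the high dose and 11 of 60 with wortmannin. Over all genes, the same setting called 9017 of 20033, 4150 of 13802 and 306 of 9268 at these doses in SW1783. Between medium and low dose it called 2644 of 14368, and with wortmannin 4699 of 14810. In HT29 it called 1262 of 15002 at the high dose and 2596 of 12553 with wortmannin. edgeR gave 3 at the medium dose in SW1783, where the fit on all 18 libraries gave 2, and 0 at the high dose in HT29. Fits on only the groups compared gave 0 there too, and 1 at the medium dose in HT29, as did the filter on low counts and the fit on all 18 libraries. With the replicate number as a block, 1 listed gene was called with wortmannin in SW1783 and 0 at the high dose in HT29, and the block changed no call of a member. Same-numbered libraries stood apart from the others only among the SW1783 vehicles, so these block counts rest on a shared number. The cause of these shifts was not tested.

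With 1 library left out, 13 of 390 values changed direction or lost a call, and 12 counts moved by over 1.5 times. Values that changed direction lay near 0: NGFR with wortmannin (-0.33 to 0.09), NTRK3 in SW1783 at the medium (-0.59 to 0.06) and low dose (-0.44 to 0.21) and between them (-0.32 to 0.04), BDNF between the SW1783 vehicles (-0.05 to 0.00), and SORT1 between the vehicles of SW1783 (-0.03 to 0.02) and of HT29 (-0.03 to 0.07) and at the medium dose in HT29 (-0.05 to 0.02). The line difference of BDNF with wortmannin ranged from 0.54 to 0.84 and lost its call without replicate 2 of the HT29 vehicle of batch A. Listed genes called ranged from 0 to 2 at the medium dose and 1 to 3 with wortmannin in SW1783, and from 0 to 4 at the high dose and 0 to 1 with wortmannin in HT29. The lowest counts came without replicate 1 of the vehicle at the medium dose, without replicate 3 of either group with wortmannin, and at the high dose in HT29 without replicates 2 or 3 of the vehicle or 1 or 3 of the dose. Without replicate 2 of the HT29 high dose, 4 were called. Counts under 20, as for NTRK3 throughout, limit what can be detected.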
